A study of Mus musculus with 4 samples.

Results

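The genes described here are 39 Polycomb, histone-modifying and chromatin-remodelling genes of mouse embryonic stem (ES) cells, compared between wild-type (WT) cells and cells with a knockout (KO) of Klf5, a zinc finger transcription factor. They were taken by name: every array row whose platform gene symbol was one of the 39, which gave 104 of the 45101 probe sets. They fall into 14 Polycomb genes, 16 genes of histone-modifying enzymes and their subunits, and 9 genes of remodellers, the replication-timing factor Rif1 among the last. The series holds 4 Affymetrix arrays, 1 for each of 2 WT clones and 2 Klf5 KO clones, all grown with serum and LIF, the cytokine that holds mouse ES cells in the undifferentiated state. Each group is 2 clones of 1 genotype; the labels do not say how Klf5 was deleted, which line was the parent or whether feeder cells were used. Each limma p-value rests on the spread between 2 clones per group, which may be technical. It leans more on the spread of all kept probe sets (6.86 prior degrees of freedom) than on that of the gene's own clones (2 residual).

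Polycomb proteins act as repressors in 2 complexes. PRC2 methylates lysine 27 of histone H3 through Ezh1 or Ezh2, and PRC1 ubiquitinates histone H2A through Ring1 or Rnf2. In ES cells both sit on the promoters of developmental genes that are silent but can be switched on. Around them work enzymes that write or erase other histone marks, such as the methyltransferases Ehmt1, Ehmt2 and Setdb1 for lysine 9 of histone H3 and the Kdm demethylases, and ATP-driven remodellers such as SWI/SNF (Smarca4) and NuRD (Chd4, Mbd3), which move or evict nucleosomes.

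The arrays separated by genotype. Klf5 itself had a normalized intensity of 34.8 and 49.9 in the KO clones, against 2395 and 1783 in the WT clones, a log2 fold change of -5.17. Markers of ES cells summed to 36871 and 37720 in KO against 39553 and 40098 in WT over 12 genes, of which 1 fell and 11 did not pass. Their median log2 fold change was -0.18, from -1.27 to 0.24. In 6 of the 12 both KO clones read below both WT clones (29.6% of all genes), and in 1 above (25.9% of all genes). Of 24 measured markers of fibroblasts and feeder cells 22 rose, with a median log2 fold change of 2.01, and over the 25 with a probe set their summed intensity was 18336 and 18254 in KO against 5502 and 3524 in WT. Col6a1, Lum, Dcn and Prrx1 of that list lay under the filter intensity of 13.05 in both WT clones. Lum was removed, while Col6a1, Dcn and Prrx1 passed the filter only through their KO values and are part of the 24. Endoderm, trophectoderm and neural markers gave 0 calls (13 measured). The part that a change in cell make-up has in the results below was not tested, and in bulk RNA fewer cells of a type and less RNA per cell cannot be told apart.

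Of the 39 chromatin genes 1 fell and 1 rose in KO clones (limma, adjusted p under 0.05), and 37 did not pass; folds are on the log2(intensity + 16) scale. Over all 13024 genes 1.34% fell and 2.94% rose. Ehmt2 (G9a), which mono- and dimethylates lysine 9 of histone H3, fell 1.84-fold, and Kdm6b (Jmjd3), which removes methyl groups from lysine 27 of histone H3, rose 1.82-fold. Without a test, in 24 of the 39 both KO clones lay below the lower WT clone (61.5%, against 29.6% of all genes), and in 5 both lay above the higher WT clone (12.8%, against 25.9% of all genes). The members' median log2 fold change was -0.28, beside -0.02 for all genes. The members were bright: their median was at percentile 86 of all genes by mean signal, and 24 of them lay among the brightest 20% of genes. In that bin 17 of the 24 members read lower in both KO clones, against 32.4% of the 2605 genes there. The members' median was -0.30 in that bin, and that of all its genes was -0.03.

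**Figure D1:**
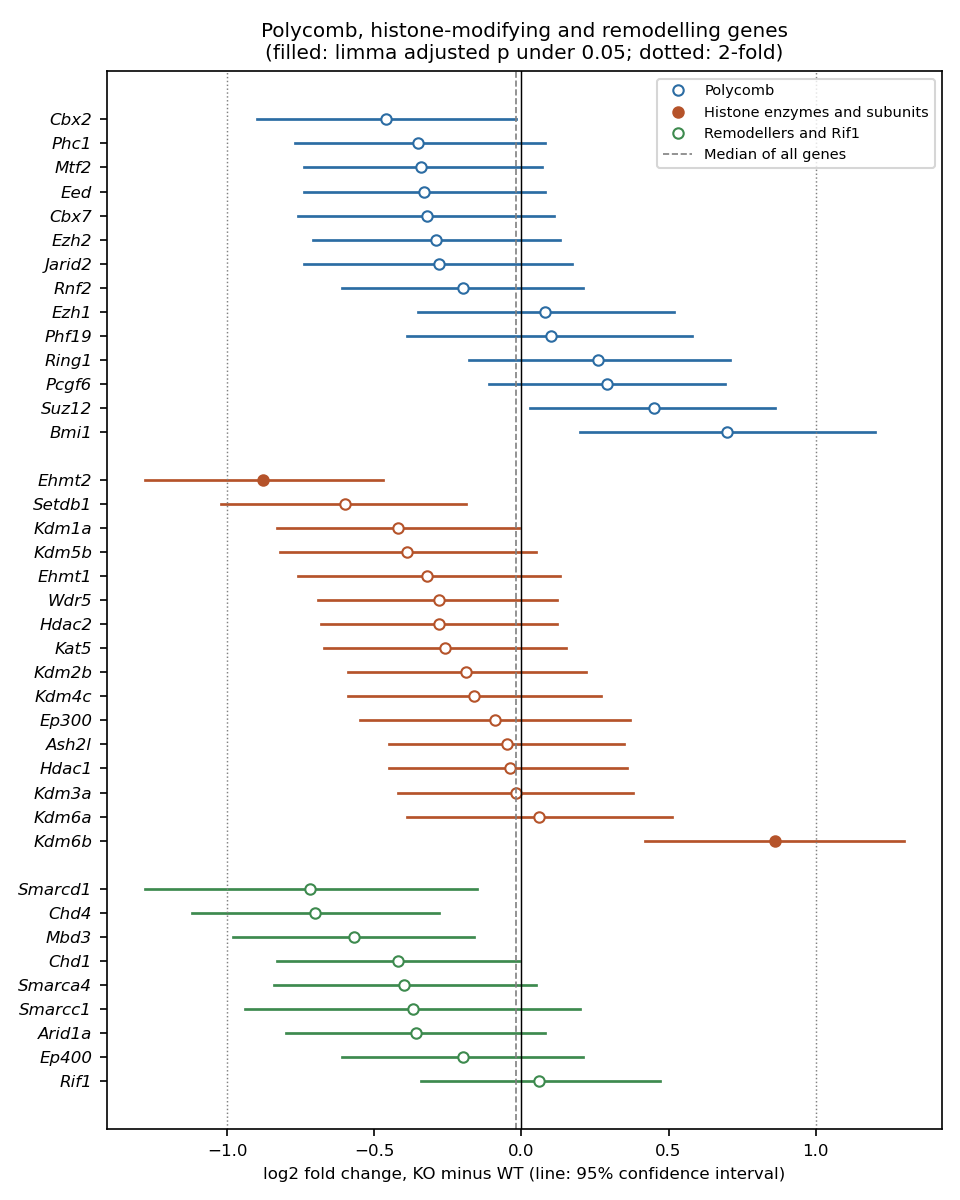
Log2 fold change (KO minus WT) of each of the 39 genes with its 95% confidence interval, in 3 groups, n = 2 arrays per group; the dashed line is the median of all genes (-0.02) and the dotted lines mark 2-fold. Filled points are the genes past the threshold, Ehmt2 at -0.88 and Kdm6b at 0.86, and most other points lie to the left of 0 with intervals that reach it.

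The 95% confidence interval lay wholly within 2-fold for 33 of the 39 genes, with a median standard error (SE) of 0.18 on the log2 scale. The same held for 10909 of all 13024 genes (median SE 0.19), so it does not set the members apart. For the members that number was 6 in the values as deposited (median SE 0.38) and 14 after centring each array on its median (0.27), so it does not bound the changes under every scaling. Under both of these scalings the fit gave all 39 genes the same SE. The p-values of those scalings, wherever given in the text, thus take no account of the spread between a gene's own clones. At an unadjusted limma p under 0.05 there were 8 of the 39 genes lower and 3 higher, against 1371 lower and 1421 higher of all 13024 genes. The shift also depended on the scaling between arrays. In the values as deposited the median of all genes itself was -0.23 and that of the members -0.56, and after centring each array on its median the values were -0.19 and -0.52. Relative to all genes the members' median was thus -0.26 as reported here, -0.33 as deposited and -0.33 after centring, and 29, 31 and 31 of the 39 lay below the median of all genes. The calls were 1 lower and 1 higher as reported, 0 and 0 as deposited, and 5 lower and 0 higher after centring. Of all 13024 genes 558, 193 and 1076 were called in these settings, both directions together.

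By group, with no test of a difference between the groups, of the 9 remodellers 7 read lower in both KO clones and 0 higher, with a median of -0.40. Of the 16 histone enzyme genes 10 read lower and 1 higher, with a median of -0.22, and of the 14 Polycomb genes 7 read lower and 4 higher, with a median of -0.24. Over all genes 29.6% read lower in both KO clones and 25.9% higher. The share of Polycomb genes that read higher, 28.6%, was close to the latter. Against the WT mean, the remodellers' median was -0.54 in KO clone 1 and -0.25 in KO clone 2, that of the histone enzymes -0.29 and -0.19, and that of Polycomb -0.21 and -0.15. KO clone 1 thus showed the larger shift in all 3 groups. This clone also had the highest log2 ratio of 3′ to 5′ signal for beta-actin, a sign of RNA quality, at 0.75 against 0.52 in KO clone 2 and 0.48 and 0.44 in WT clones 1 and 2, while that of Gapdh ran from -0.33 to -0.29 over the 4 arrays. Its part in the result was not tested.

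Among the methyltransferases for lysine 9 of histone H3, all 3 members read lower in both KO clones, as did 29.6% of all genes. The intensity of Ehmt2 was 1049 in each WT clone but 538 and 589 in the KO clones (pairs of values give clone 1 first throughout). The WT clones were alike and the groups stood far apart. On the log2 scale Ehmt2 fell by 0.88 ± 0.18 (SE from the limma fit, 2 clones a group), with a limma adjusted p of 0.032. The other Ehmt2 probe set, dimmer, read 108 and 122 in KO against 234 and 274 in WT, a fall of 1.04 ± 0.19 (adjusted p = 0.020). Both probe sets of the gene thus passed, the sole case among the members. The call of Ehmt2 was lost on leaving out any of the 4 arrays (0.08 to 0.17 as adjusted p), although its log2 fold change stayed between -0.94 and -0.82. It was also lost with a pseudocount of 1 (adjusted p = 0.13), with no filter (0.11) and in the values as deposited (0.074).

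Setdb1, which trimethylates lysine 9 of histone H3 and silences endogenous retroviruses in ES cells, read 545 and 640.5 in KO against 917 and 897 in WT. Its log2 fold change was -0.60 ± 0.18 (adjusted p = 0.12). A second Setdb1 probe set had -0.80 ± 0.21 (adjusted p = 0.072), and a further, dim one -0.11. Ehmt1 (GLP), the partner with which Ehmt2 forms its active dimer, read 579.5 and 682 in KO against 707 and 875 in WT. The KO clones lay below the WT clones, but the gap between the nearest clones was small beside the spread within each group. Its log2 fold change was -0.32 (95% confidence interval -0.76 to 0.13), an interval that overlaps that of Ehmt2 (-1.28 to -0.47). Ehmt1 had -0.66 in the values as deposited, -0.62 after centring and -0.47 and -0.16 on leaving out WT clone 1 or 2.

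The promoter windows of these 3 genes are given because Klf5 and its relatives bind CACCC boxes and GC boxes, and Ehmt2 was the member that fell. Each window runs from 250 bases before to 50 after the RefSeq start (GRCm38.p6), 5′ to 3′ on the strand of the gene. Capitals mark CACCC boxes (CACCC, or GGGTG on the other strand) and GC boxes (GGGCGG, or CCGCCC on the other strand), which may overlap.
Ehmt2, chr17:34898224-34898523, plus strand: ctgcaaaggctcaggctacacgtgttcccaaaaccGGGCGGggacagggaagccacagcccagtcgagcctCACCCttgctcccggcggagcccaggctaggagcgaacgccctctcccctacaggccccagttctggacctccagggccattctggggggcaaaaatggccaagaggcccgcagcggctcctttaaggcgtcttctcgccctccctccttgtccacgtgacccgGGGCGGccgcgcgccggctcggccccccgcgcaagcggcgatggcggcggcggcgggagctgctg
Ehmt1, chr2:24919560-24919859, minus strand: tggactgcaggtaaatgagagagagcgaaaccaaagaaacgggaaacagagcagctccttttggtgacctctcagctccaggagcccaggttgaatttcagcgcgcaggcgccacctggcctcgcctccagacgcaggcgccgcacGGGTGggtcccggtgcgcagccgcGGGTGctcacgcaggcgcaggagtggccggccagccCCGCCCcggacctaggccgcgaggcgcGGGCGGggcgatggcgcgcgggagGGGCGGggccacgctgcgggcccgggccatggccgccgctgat
Setdb1, chr3:95357153-95357452, minus strand: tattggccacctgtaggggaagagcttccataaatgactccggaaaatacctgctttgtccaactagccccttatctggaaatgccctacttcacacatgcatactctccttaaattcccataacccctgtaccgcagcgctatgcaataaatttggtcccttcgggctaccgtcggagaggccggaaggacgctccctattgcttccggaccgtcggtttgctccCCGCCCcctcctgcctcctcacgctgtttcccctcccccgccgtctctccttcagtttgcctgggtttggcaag

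The Ehmt2 window held 1 CACCC box and 2 GC boxes. A second annotated start of Ehmt2, downstream, had 0 CACCC boxes and 4 GC boxes. Ehmt1 had 2 and 3, and Setdb1 0 and 1. A CACCC box was found in 53.3% of 45 promoter windows of 33 members and in 57.5% of all 32851 windows, and a GC box in 77.8% of the members' windows and 35.7% of all. The members' windows were also richer in G and C (median 64.3%, against 52.7% of all). The table has no window for Hdac1, Kdm6b, Chd1, Ash2l, Cbx2 and Rif1. A match is a run of letters, and these data do not measure binding.

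Of the 7 demethylases Kdm6b rose and 6 did not pass. The intensity of Kdm6b was 227 and 290.2 in the KO clones, against 139 and 129 in the WT clones. Both KO clones lay well above the WT clones. The log2 value rose by 0.86 ± 0.19 (adjusted p = 0.048), close to the threshold. Its other probe sets, dimmer, did not follow: one with the suffix _x_at, which marks probes that can match other transcripts, had -0.15 ± 0.21 (adjusted p = 0.75) and the remaining one had -0.04 ± 0.22 (adjusted p = 0.93). With the mean of the 3 probe sets the value was 0.22 (adjusted p = 0.54). The call was also lost on leaving out any array (0.11 to 0.17 as adjusted p), with a pseudocount of 1 (0.15), with no filter (0.14), in the values as deposited (0.63) and after centring (0.14). In the same arrays the fibroblast markers had a median of 2.01, and their part in this rise was not tested.

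Kdm6a (Utx), the X-linked paralog of Kdm6b, read 408 and 458 in KO against 469 and 366 in WT. The groups overlapped, and the log2 fold change was 0.06 (95% confidence interval -0.39 to 0.51). Kdm1a (Lsd1), which removes methyl groups from lysine 4 of histone H3, read 2591 and 2959 in KO against 3649 and 3762 in WT. Its groups did not overlap, with -0.42 ± 0.18 (adjusted p = 0.24) and -0.37 on its other probe set. Kdm5b, a demethylase for trimethylated lysine 4 of histone H3, read 1255 and 1553 in KO against 1865 and 1796 in WT, with -0.39 ± 0.19 (adjusted p = 0.29), while 1 of its dim probe sets had 0.40 and another -0.66. Kdm2b, which brings PRC1 to CpG islands, had -0.19. Kdm3a and Kdm4c, demethylases for lysine 9 of histone H3, had -0.02 and -0.16, and their groups overlapped.

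None of the remaining histone enzymes passed. Hdac1 and Hdac2 are the catalytic deacetylases of several corepressor complexes. Hdac1 read 2887 and 2954 in KO against 3129 and 2902 in WT, and its groups overlapped, with a log2 fold change of -0.04 (95% confidence interval -0.45 to 0.36). Hdac2 read 1441 and 1529.8 in KO against 1807 and 1809 in WT, lower in both KO clones, with -0.28 (-0.68 to 0.12). Wdr5 and Ash2l, core subunits of the complexes that methylate lysine 4 of histone H3, had -0.28 and -0.05. A second probe set of Wdr5 had -0.40, and a dim one of Ash2l had 0.45. The acetyltransferases Ep300 and Kat5 (Tip60) had -0.09 and -0.26, and a second probe set of Kat5 had -0.48 ± 0.18 (limma adjusted p = 0.18). The lowest adjusted p of these 6 genes, on the probe sets that stand for them, was 0.41.

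**Figure D2:**
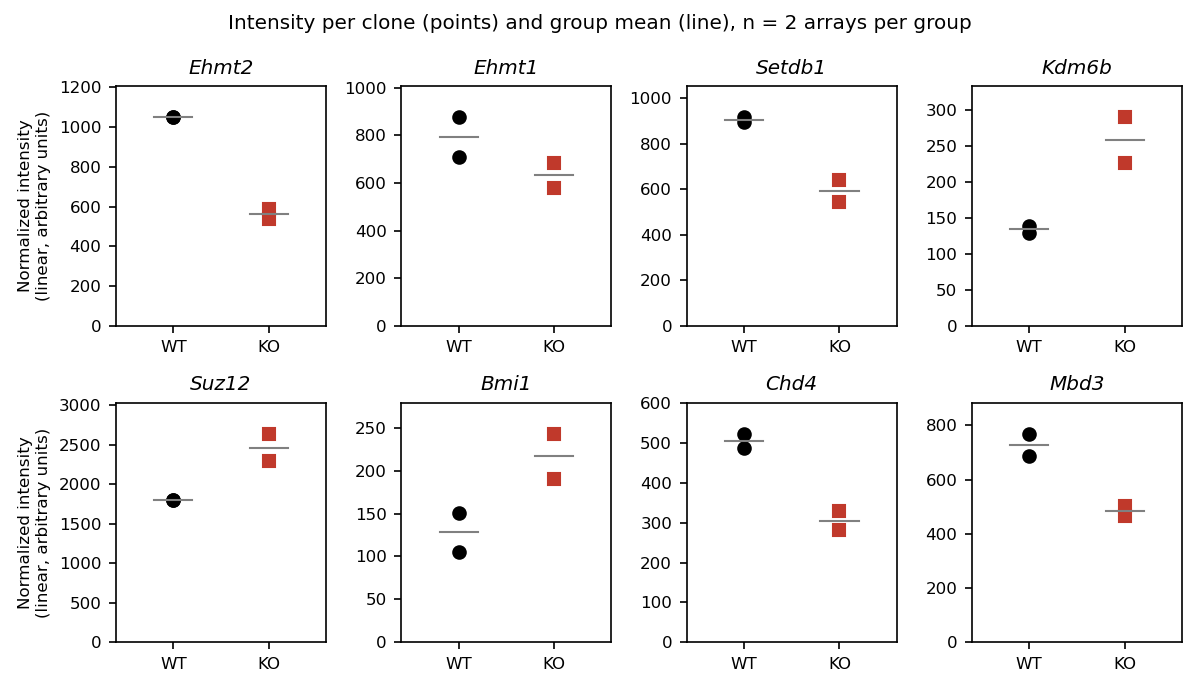
Normalized intensity (linear scale, from 0) of 8 of the genes in each of the 2 WT (black) and 2 KO (red) clones, with the group mean as a line. Ehmt2 is at 1049 in both WT clones and at 538 and 589 in KO, Kdm6b is higher in both KO clones, and in Ehmt1 the groups come close to each other.

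The remodellers had the lowest group median. Chd4, the ATPase of the NuRD complex, read 281 and 329 in KO against 522 and 488 in WT. The groups did not overlap, and the log2 fold change was -0.70 ± 0.18 (adjusted p = 0.077). Its other probe sets had -0.48 and -0.63, so all 3 pointed one way. Mbd3, the subunit that sets one form of NuRD apart, read 464 and 504 in KO against 687 and 769 in WT, with -0.57 ± 0.18 (adjusted p = 0.13). Neither gene passed. Both passed after centring on the median (adjusted p = 0.0079 and 0.020), where all members had the same SE of 0.27 whatever their own spread. Both also passed with a pseudocount of 64 (0.017 and 0.032). Chd4 passed as well with the filter at the 60th percentile (0.037) and with a variance trend (0.027).

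Of the 4 SWI/SNF members 3 read lower in both KO clones, as did 29.6% of all genes, and 0 passed. Smarcd1 (Baf60a), an accessory subunit, read 65.2 and 119 in KO against 164 and 149 in WT. The KO clones differed from each other more than the nearest KO clone did from WT, and the log2 fold change of -0.72 ± 0.25 (adjusted p = 0.15) became -0.35 on leaving out KO clone 1 and -1.08 on leaving out KO clone 2. Smarca4 (Brg1), the ATPase of the complex in ES cells, read 774 and 947 in KO against 1222 and 1049 in WT, with -0.40 ± 0.20 (adjusted p = 0.29) and -0.82 on a dimmer probe set. Arid1a, the DNA-binding subunit, had -0.36 and -0.44 on its 2 probe sets. Smarcc1 (Baf155), a scaffold subunit, had overlapping groups and probe sets of both signs, from -0.54 to 0.44.

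Chd1, a remodeller of active genes, read 199.7 and 225 in KO against 279 and 298 in WT, with -0.42 ± 0.18 (adjusted p = 0.24). All 4 of its probe sets were below 0, from -0.63 to -0.01. Ep400, the ATPase that works with Kat5, had -0.20, and its 6 probe sets were split, 3 below 0 and 3 above. Rif1 had 0.06 with overlapping groups and was the remaining gene of the group, the only one of the 9 above 0, although it had -0.22 in the values as deposited and -0.18 after centring.

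Within PRC2 the core subunits differed in sign. Suz12, the scaffold that holds the complex on chromatin, read 2289 and 2639 in KO against 1801 and 1799 in WT. It was higher in both KO clones, with a log2 fold change of 0.45 ± 0.18 (adjusted p = 0.21). In these quantile-normalized values all 6 Suz12 probe sets were above 0, from 0.18 to 0.47, and on 5 of them the groups did not overlap. They ran from 0.04 to 0.15 in the values as deposited and from 0.07 to 0.19 after centring, where the probe set that stands for the gene had 0.15 (adjusted p = 0.95) and 0.18 (0.75). Eed, which binds the trimethyl mark, had -0.33, with both KO clones (3449 and 3122) below both WT clones (4239 and 4006). Ezh2, the main catalytic subunit in dividing cells, read 1231 and 1440.4 in KO against 1666 and 1596 in WT, with -0.29 (95% confidence interval -0.71 to 0.13). Ezh1, its paralog, read 173 and 174 in KO against 144 and 184 in WT, and its groups overlapped (0.08, with an interval of -0.35 to 0.52). None of the 4 passed.

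The accessory subunits of PRC2 help to recruit it. Mtf2 (Pcl2) read 3983 and 3837 in KO against 5096 and 4788 in WT, lower in both KO clones, with -0.34 ± 0.18 (adjusted p = 0.32). A second Mtf2 probe set had -0.88 ± 0.23 (adjusted p = 0.078), and the 6 together ran from -0.88 to 0.12. Jarid2 had -0.28 on its brightest probe set, whose groups overlapped, and -0.70 ± 0.18 (adjusted p = 0.074) on the dimmest of its 3. Phf19 (Pcl3), dim at 54.2 to 82.2, had 0.10.

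All 7 PRC1 members had groups that did not overlap, 4 lower and 3 higher in KO (29.6% and 25.9% of all genes), and 0 passed. Bmi1 (Pcgf4), a RING finger partner of the catalytic subunits, read 243 and 190.1 in KO against 151 and 106 in WT. Its log2 fold change was 0.70 ± 0.22 (adjusted p = 0.12), with 0.36 on a dimmer probe set, and it became 0.43 in the values as deposited and 0.46 after centring. Pcgf6, the partner in a variant PRC1 that is active in ES cells, had 0.29, 0.30 and 0.91 on its 3 probe sets, all higher in both KO clones, although its brightest probe set had -0.05 in the values as deposited and -0.01 after centring. Cbx2 and Cbx7 are chromodomain subunits that read the PRC2 mark. Cbx2 read 148 and 122 in KO against 173 and 211 in WT, with -0.46 ± 0.20 (adjusted p = 0.23), and Cbx7 298 and 303 in KO against 337 and 429 in WT, with -0.32 (95% confidence interval -0.76 to 0.11). Phc1, a SAM domain subunit, read 1691 and 1701 in KO against 2381 and 1967 in WT, with -0.35 ± 0.19 (adjusted p = 0.33). The catalytic pair gave 1249.8 and 1134 in WT against 1062 and 1005 in KO for Rnf2 (Ring1b; log2 fold change -0.20) and 52.2 and 70.5 in WT against 80.9 and 71.7 in KO for Ring1 (0.26, on a dim probe set). A second Rnf2 probe set, nearly as bright, had -0.47 ± 0.18 (limma adjusted p = 0.19), and a dim one had -0.14.

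Several members belong to pairs of near relatives, so the log2 difference between the 2 genes of a pair was followed in each array. Levels of 2 probe sets cannot be compared, but a shift of their difference can. In KO relative to WT the difference shifted by -0.37 for Ezh2 minus Ezh1, -0.46 for Rnf2 minus Ring1, -0.56 for Ehmt2 minus Ehmt1, -0.24 for Hdac2 minus Hdac1, 0.80 for Kdm6b minus Kdm6a and 0.13 for Cbx7 minus Cbx2. These shifts use the brightest probe set of each gene. The dimmer probe sets of Kdm6b had log2 fold changes of -0.15 and -0.04, and those of Kdm6a -0.37 and 0.02. In 5 of the 6 pairs the KO clones lay on one side of the WT clones, and in the Cbx pair they overlapped; of single genes over the whole array 29.6% and 25.9% were separated downwards and upwards. By an exact permutation test over the arrays (two-sided) these 5 had p = 0.33, the smallest value that 2 against 2 arrays can give, and the Cbx pair p = 0.67 (0.40 and 0.67 adjusted over the 6 pairs). This test could not pass its threshold at that number of arrays, so it says nothing for or against a shift, and the shifts are given as values.

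**Figure D3:**
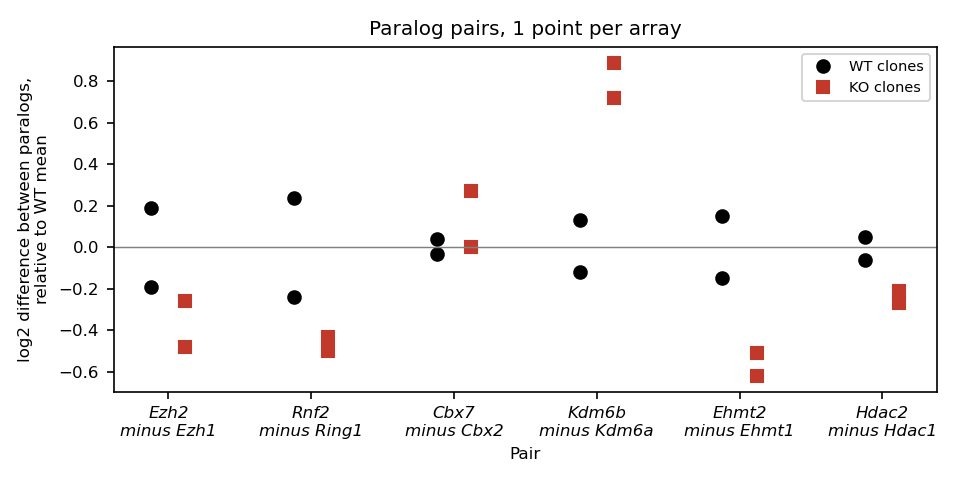
Log2 difference between the 2 genes of each of 6 paralog pairs in every array, set to 0 at the WT mean; black circles are the 2 WT clones and red squares the 2 KO clones. On the brightest probe set of each gene, the Kdm6b minus Kdm6a difference is higher in both KO clones by 0.80 on average, and that of Ehmt2 minus Ehmt1 lower by 0.56. The dimmer Kdm6b probe sets did not rise.

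Probe sets of one gene were compared as a check on these values. Of the 104 probe sets of the members 95 passed the filter on dim signal and 9 were removed, and all 39 genes kept at least 1. There were 12 genes with 1 kept probe set and 27 with more. Of the 27, 19 had all probe sets on one side of 0 and 8 had probe sets of both signs (Ezh1, Mtf2, Kdm5b, Kdm6a, Kdm6b, Ash2l, Smarcc1 and Ep400). For 7 of the 27 the values ran over more than 0.5 on the log2 scale. Only 3 of the 95 probe sets passed, both of Ehmt2 and 1 of Kdm6b. Which part of each transcript a probe set covers was not used here.

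**Figure D4:**
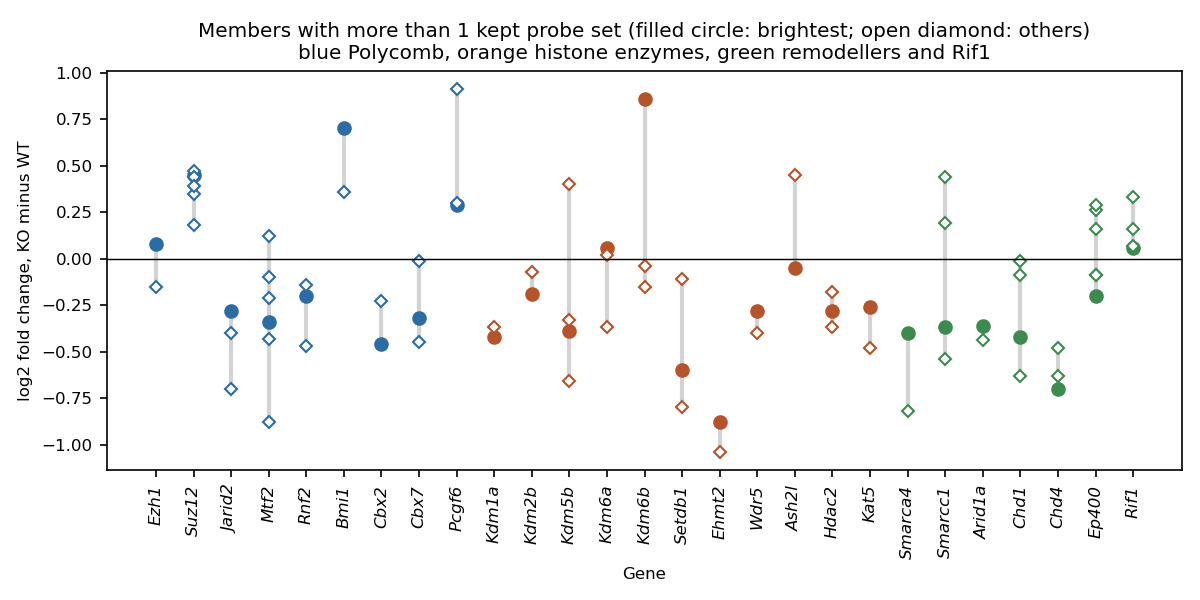
Log2 fold change (KO minus WT) of every kept probe set of the 27 genes that have more than 1; filled circles are the brightest probe set, which stands for the gene, and open diamonds the others. All Suz12 points lie above 0 and both of Ehmt2 below -0.80, while Kdm5b, Kdm6b and Smarcc1 span 0.

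Other genes of the same complexes and enzyme families were read from a list of 190, of which 177 were measured. Of these 2 rose, 2 fell and 173 did not pass, and their median was -0.11. In 39% of them both KO clones were below both WT clones (29.6% of all genes), and in 15.3% above (25.9% of all genes). The rise of Scml2, a Polycomb protein of the Scm family, was the largest: it read 128 and 141 in KO against 30.5 and 20.1 in WT, and rose by 1.87 ± 0.20 (adjusted p = 0.0015). It passed under all 13 alternatives. Smyd2, a lysine methyltransferase, read 763 and 836 in KO against 459 and 410.1 in WT, and rose by 0.86 ± 0.18 (adjusted p = 0.038).

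Those that fell were Smarca1 and Hdac4. Smarca1 (Snf2l), an ATPase of the ISWI family, read 35.3 and 41.1 in KO against 93.2 and 87.5 in WT, a fall of 0.97 ± 0.18 (adjusted p = 0.023). Hdac4, a class IIa deacetylase, read 24.0 and 34.8 in KO against 64.5 and 66.7 in WT, a fall of 0.86 ± 0.19 (adjusted p = 0.049). Smyd2, Smarca1 and Hdac4 each lost their call with any 1 array left out, with adjusted p up to 0.17, 0.15 and 0.24. Their calls were also lost with a pseudocount of 1 (0.14, 0.088 and 0.13), with no filter (0.12, 0.095 and 0.15) and in the values as deposited (0.69, 0.14 and 0.28), that of Smyd2 after centring (0.19) and that of Hdac4 with probe sets averaged (0.076). Among the 72 other remodellers 27 read lower in both KO clones and 4 higher, among 75 other histone enzymes 33 and 15, and among 30 other Polycomb genes 9 and 8. The remodellers outside the 39 thus also had few genes above the WT range, and the Polycomb genes outside them were close to the 29.6% and 25.9% of all genes.

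The calls among the 39 were compared over the alternative processings. Besides Ehmt2 and Kdm6b, 4 genes passed under at least 1 of 13 alternatives: Chd4 under 4, Setdb1 under 3, Mbd3 under 2 and Smarcd1 under 1, all of them lower in KO. Smarcd1 passed only after centring, where the fit gave all members the same SE. Ehmt2 passed under 6 and Kdm6b under 4. Of the 39 genes 29 kept their sign under all alternatives and 10 did not. With any 1 array left out 0 of the 39 passed, while of all probe sets 587, 497, 211 and 387 did without WT clone 1, WT clone 2, KO clone 1 and KO clone 2, against 996 with all arrays.

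**Figure D5:**
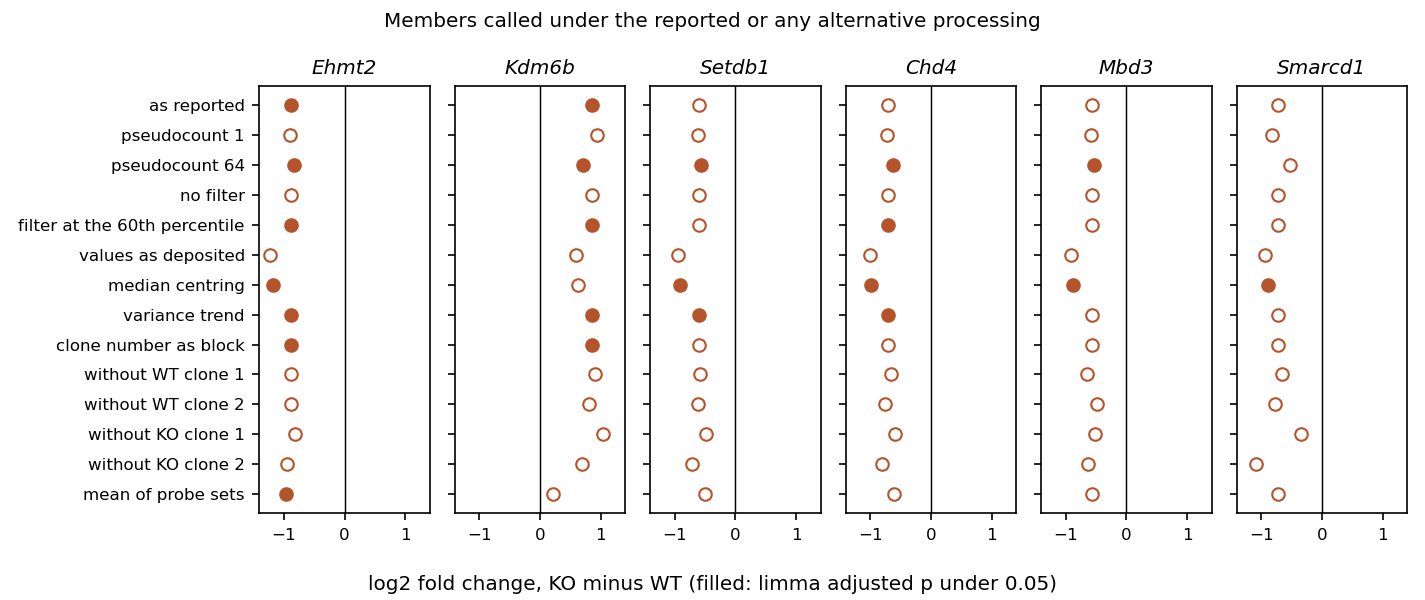
Log2 fold change (KO minus WT) of the 6 genes past the threshold as reported or under any alternative, 1 line per processing; filled points have a limma adjusted p under 0.05. Each gene stays on its side of 0 throughout, from -1.22 to -0.82 for Ehmt2 and from 0.22 to 1.03 for Kdm6b, and no point is filled with an array left out.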

How the data were processed

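Total RNA of 4 clones was hybridised to 1 array each. The deposited table gives 1 intensity per probe set; per the labels, Affymetrix GeneChips were used, and neither labels nor file headers state the summarisation or scaling. Trimmed means (2% off each end) were 227, 139, 138 and 150.5, so arrays were quantile normalized without the 64 control probe sets (limma 3.58.1, R 4.3.3), and log2(intensity + 16) was taken, which understates changes of dim genes. Probe sets with a mean below the 40th percentile were removed (27022 left). KO was compared with WT by lmFit and eBayes across all of them (2 residual, 6.86 prior degrees of freedom), adjusted by Benjamini-Hochberg with 0.05 as the threshold. The fit was tested on simulated arrays with known changes. No called change had the wrong direction, and the median size of the 2-fold changes came out near that simulated. Most 4-fold changes were called but almost no 2-fold ones. Fewer probe sets were changed there than the 996 called in the data, and spreads were shuffled among probe sets. The share called thus does not carry over to these data, where Ehmt2 passed at 1.84-fold. A change of 2-fold or less could still go uncalled here. The brightest probe set (_x_at last) stood for a gene. Symbols came from the platform annotation (34958 rows with 1 symbol, 932 with several, 9160 with none).

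The members and lists were chosen with earlier results of these data known. Values in every array are given for genes past the threshold, the 5 of smallest p in each group and 6 paralog pairs; of the other 190 genes, those past the threshold, at most 6 each way in each group. Eed, Jarid2 and further genes with array values or probe-set values were added to that rule. The comparison within the brightest 20% of genes was chosen after seeing the data. Alternatives were other pseudocounts, filters, scalings, a variance trend, a clone block, each array left out and probe sets averaged. The promoter sequences are RefSeq's (GRCm38.p6).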

Additional observations from a re-analysis of the deposited data

How the results depend on the processing

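The calls among the 39 genes moved with the processing. From 2, the count went to 0 with a pseudocount of 1, with no filter and in the values as deposited, to 5 with a pseudocount of 64 and after centring on the median, to 4 with a variance trend and to 1 with probe sets averaged. It was 0 on leaving out any array; a group's single array then borrows the spread of the other group. Of all 13024 genes 558 were called as reported, 116 with a pseudocount of 1, 115 with no filter and 193 as deposited. With a pseudocount of 64, after centring and with the trend it was 1177, 1076 and 1119 genes. Over all probe sets the count of 996 went to 191 with a pseudocount of 1, 2058 with one of 64, 190 with no filter, 332 as deposited, 2058 after centring and 1954 with the trend. It ran from 211 to 587 with 1 array left out. The group medians moved with the scaling: to -0.52, -0.54 and -0.71 as deposited for Polycomb (from -0.24), histone enzymes (from -0.22) and remodellers (from -0.40), and to -0.49, -0.50 and -0.67 after centring. With 1 array left out they ran from -0.21 to -0.15, from -0.29 to -0.19 and from -0.54 to -0.25. The median of all genes also moved, from -0.02 to -0.23 as deposited and -0.19 after centring. The cause of these moves was not tested.

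Signs turned for 10 genes, none past the threshold. As deposited this gave -0.18 for Ezh1, -0.04 for Phf19, -0.05 for Pcgf6, -0.28 for Kdm6a and -0.22 for Rif1, and after centring -0.14, -0.01, -0.01, -0.24 and -0.18. With 1 array left out, Ezh1 ran from -0.08 to 0.24, Phf19 from -0.15 to 0.34, Kdm3a from -0.06 to 0.02, Kdm6a from -0.11 to 0.23, Rif1 from -0.01 to 0.14, Hdac1 from -0.10 to 0.01 and Ep300 from -0.25 to 0.07. With probe sets averaged, Ezh1 had -0.04, Kdm6a -0.10, Ash2l 0.20 and Ep400 0.05.

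With the clone number as a replicate block 2 genes of the 39 passed, Ehmt2 and Kdm6b as before, and 1317 probe sets in all. The labels do not say that clones of one number belong together, and the correlation of WT clone 1 minus 2 with KO clone 1 minus 2 over the kept probe sets was 0.055. The number of arrays limits the precision.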
